A study of Mus musculus with 10 samples.

Results

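Mesenchymal cells sorted from adult mouse lung by the Wnt2 lineage label were compared with cells that carried the Axin2 lineage label and not the Pdgfra label. The comparison rests on 4 of the 10 RNA-seq libraries of the series, 2 for each lineage. It takes, for every gene, the mean log2 level of the Wnt2 libraries minus that of the Axin2 libraries. Of 14854 genes in the deposited tables, 14177 had a log2 value of 6 or more in at least 2 of the 10 libraries and were compared. At that limit the rule kept Scn8a, with a second-highest value of 6 among the 10 libraries, and left out Irx3, at 5.996.

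The Wnt2 cells came from mice of the genotype Wnt2CreERT2:R26REFYP. The Axin2 cells, labelled tdt, came from mice of the genotype Axin2CreERT2:tdT:PdgfraEGFP. CreERT2 is a recombinase that acts after tamoxifen and leaves a lasting reporter mark in the cells that express its driver gene and in their descendants. PdgfraEGFP is a reporter of Pdgfra transcription, which only the Axin2 line carries. The other groups, with 2 libraries each, came from that same line: Axin2:Pdgfra (both marks, labelled G_T), Pdgfra (EGFP alone, labelled GFP) and Negative (labelled neg). RNA was extracted with Trizol after sorting by FACS. The sources used here do not give the tamoxifen schedule, the age in weeks or the number of animals behind each library. Mouse line, reporter and lineage, and with them the Y-linked transcripts given below, change together between the compared groups. They cannot be told apart in any difference below. Nothing in the labels ties the paired libraries to different animals, and p-values below cover only the spread between these libraries.

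Wnt2 is a Wnt ligand made by lung mesenchyme, where it acts on epithelium and on the mesenchyme itself. Axin2 is induced by canonical Wnt signalling and feeds back on it, so an Axin2 driver marks cells that were receiving a Wnt signal. Lung mesenchyme holds several cell kinds. Alveolar fibroblasts, which include lipid-storing cells, express Pdgfra and integrin alpha 8 and support alveolar epithelium. Pericytes and vascular smooth muscle are the mural cells of vessels: they express Pdgfrb, depend on Notch3 signalling, and contract through smooth muscle actin and myosin. Adventitial fibroblasts lie around large vessels and airways and are known for Pi16, Col14a1 and decorin.

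Depth is unknown, since the tables hold log2 values without counts, and the number of libraries limits the precision. The files have a shared distribution, with medians of 9.1 to 9.11 in the 4 libraries and a highest value of 19.25. In the Wnt2 libraries 2.92% and 3.19% of genes sat at the lowest value of the file, against 8.09% and 9.76% in the Axin2 libraries. That lowest value was 1 in both Wnt2 libraries and 1.55 and 1.75 in the Axin2 libraries. Spearman correlation across genes was 0.928 between the Wnt2 libraries, 0.86 between the Axin2 libraries and 0.765 to 0.8 between lineages. The sex-linked transcripts set Wnt2 library 2 apart: Xist, which coats the silenced X chromosome in females, was at 7.80 there and at 17.04 in Wnt2 library 1, while Y-linked Ddx3y was at 11.48 in library 2 and 8.15 in library 1. Both Axin2 libraries had Xist at 16.68 or more and Ddx3y at the lowest value. The list of Xist and 4 Y-linked genes had median levels of 7.61 and 10.85 in the Wnt2 libraries and of 1.55 and 1.75 in the Axin2 libraries. Y-linked Ddx3y was thus higher in both Wnt2 libraries, while Xist was low in Wnt2 library 2 alone. Sex cannot be fully told apart from lineage, although none of the 5 genes passed the test. Results that rest on either Wnt2 library are therefore given without each of them as well.

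The genes that name the lineages were read first. Wnt2 was at 9.67 and 10.05 in the Wnt2 libraries and at 9.71 and 10.40 in the Axin2 libraries. The groups overlapped, and the difference was -0.20 ± 0.90 (SE) with an adjusted p of 0.938 by limma. Axin2 was at 11.29 and 11.38 against 10.47 and 11.57, a difference of 0.31 ± 0.74 (adjusted p = 0.871). Thus neither driver gene differed beyond the spread between libraries, with 95% intervals of -2.13 to 1.74 for Wnt2 and -1.28 to 1.91 for Axin2. Pdgfra was at 16.05 and 16.25 in Wnt2 cells and at 13.49 and 13 in Axin2 cells, 2.90 ± 0.36 higher in Wnt2 cells (adjusted p = 0.000514). The Axin2 cells were labelled by tdt alone in a line whose EGFP reports Pdgfra, so this value describes the sort as well as the lineage. The mesenchymal collagen gene Col1a2, at 14.94 and 14.43 against 14.49 and 14.55, and the lung mesenchyme factor Tbx4, at 13.18 and 13.13 against 13.49 and 13.29, were high in all 4 libraries.

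Across all genes, 574 of 14177 passed an adjusted p of 0.05 by limma, 4.05% of those tested. Of these, 255 (1.8%) were higher in Wnt2 cells and 319 (2.25%) were lower. These shares are the background for each Wnt2 against Axin2 count of list members below. The lists were chosen with earlier results of these data known, so such counts are descriptions and not tests of a list. A log2 difference of 1 is a change by a factor of 2. The median absolute difference among the 574 genes was 3.13, and the smallest was 0.88. Without Wnt2 library 1 or 2 the count fell to 171 or 178 genes. Without Axin2 library 1 or 2 it fell to 269 or 120. Without Negative library 0 or 2, which are no part of the comparison but of its estimate of spread, the higher genes numbered 387 or 390. A set of 93 genes, 38 higher and 55 lower in Wnt2 cells, passed in each of the 10 fits that left out a library. When a trend of level on gene length was removed, 586 genes passed, 193 higher and 393 lower, so the share of higher genes went from 44.4% to 32.9%.

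**Figure D1:**
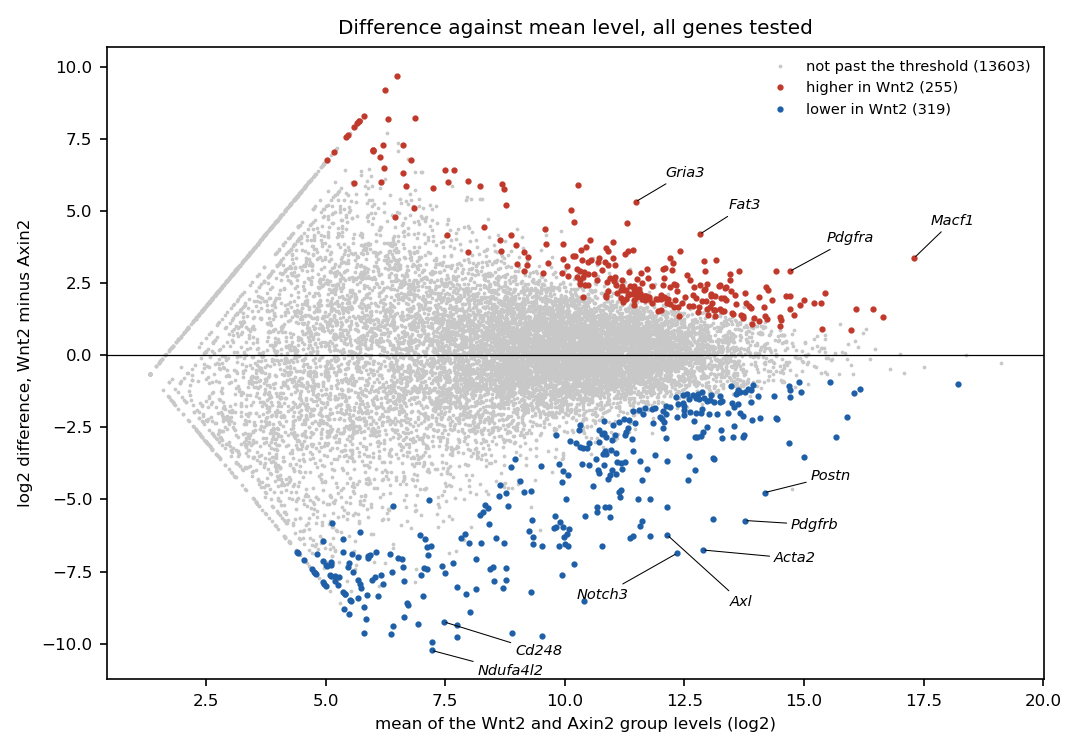
Log2 difference (Wnt2 minus Axin2, vertical axis) of each of the 14177 genes against the mean of the 2 group levels (log2, horizontal axis), with one point per gene; red points passed the threshold higher in Wnt2 cells (255) and blue points lower (319). The diagonal edges at low levels are genes at the lowest value in one group, and Pdgfrb, Acta2 and Macf1 lie far from the bulk at high levels.

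The receptors for PDGF, the growth factor that recruits and maintains fibroblasts and mural cells, differed in opposite directions. For Pdgfra the difference describes the sort as well, as given above. Pdgfrb, the receptor of mural cells, was at 10.86 and 10.94 in Wnt2 cells and at 16.32 and 16.94 in Axin2 cells. It was 5.73 ± 0.31 lower in Wnt2 cells (log2 difference -5.73, adjusted p = 1.49e-07), the opposite direction to Pdgfra. In the other groups Pdgfrb lay between these levels, at 12.53 to 12.67 in the Axin2:Pdgfra and Pdgfra libraries and at 15.02 and 15.49 in the Negative libraries. Of the ligands, Pdgfa was at 9.09 and 9.76 against 11.85 and 12.20, lower in Wnt2 cells by a log2 difference of -2.60 ± 0.68 (adjusted p = 0.0471). Pdgfb, Pdgfc, Pdgfd and the receptor-like gene Pdgfrl did not pass the test. In all, 3 of the 7 PDGF genes passed. The Pdgfra and Pdgfrb calls held in each fit that left out a library, while that of Pdgfa ended in 6 of the 10, including those without Wnt2 library 1 or 2 or Axin2 library 1 or 2.

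Pericyte genes were lower in Wnt2 cells as a group. Of 20 listed genes, all of them tested, 19 passed and were lower, and none was higher, beside 2.25% of all genes lower. Their median difference was -4.56, against 0.06 over all genes. This shift was not particular to Wnt2 cells. Within the Axin2 line, Axin2:Pdgfra minus Axin2 had 16 of the 20 lower and none higher, with a median of -4.36. Over all genes 195 of 14177 were lower there. That comparison shares the Axin2 libraries with the main one. Notch3, the receptor that keeps mural cells in their state, was at 8.90 and 8.92 in Wnt2 cells and at 15.50 and 16.05 in Axin2 cells, a difference of -6.87 ± 0.55 (adjusted p = 1.53e-05). Neither lineage's libraries came within 6 units of the other's for this gene. Cspg4, which encodes the pericyte surface proteoglycan NG2, was at 9.0 and 8.51 against 14.24 and 14.74 (difference -5.73 ± 0.79, adjusted p = 0.000927).

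Other members of the pericyte list were read in the same way. Rgs5, a brake on G-protein signalling in pericytes, was at 9.83 and 9.08 against 13.96 and 13.58 (-4.31 ± 0.65, adjusted p = 0.00168). Gucy1a1, a subunit of the nitric oxide receptor guanylate cyclase, was at 13.53 and 12.94 against 16.74 and 16.80 (-3.54 ± 0.39, adjusted p = 0.000228). In Wnt2 cells Gucy1a1 was still well above the median gene, while Rgs5 was above it in library 1 and below it in library 2. Ndufa4l2, a mitochondrial protein that mural cells make in quantity, was near the lowest value in Wnt2 cells, at 1.55 and 2.64, against 11.96 and 12.71. Its difference was -10.23 ± 1.39 (adjusted p = 0.000884), and -6.33 when values under 6 were raised to 6. Abcc9, a subunit of the pericyte potassium channel, was at 9.01 and 7.92 against 12.45 and 12.06 (-3.79 ± 0.70, adjusted p = 0.0068). The exception on the list was Steap4, at 10.36 and 6.55 against 10.81 and 10.24, whose Wnt2 libraries lay far apart. Postn, a secreted matrix protein also listed here, was at 11.85 and 11.73 against 16.58 and 16.53 (-4.77 ± 0.40, adjusted p = 2.08e-05). The count of 19 became 15 without Wnt2 library 1, 13 without Wnt2 library 2, 13 without Axin2 library 1 and 9 without Axin2 library 2. Of the genes named, the calls of Notch3, Cspg4, Rgs5, Gucy1a1, Ndufa4l2 and Postn held in each of these fits, and that of Abcc9 ended in 3. In bulk samples, fewer cells of a type and less RNA per cell cannot be told apart.

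**Figure D2:**
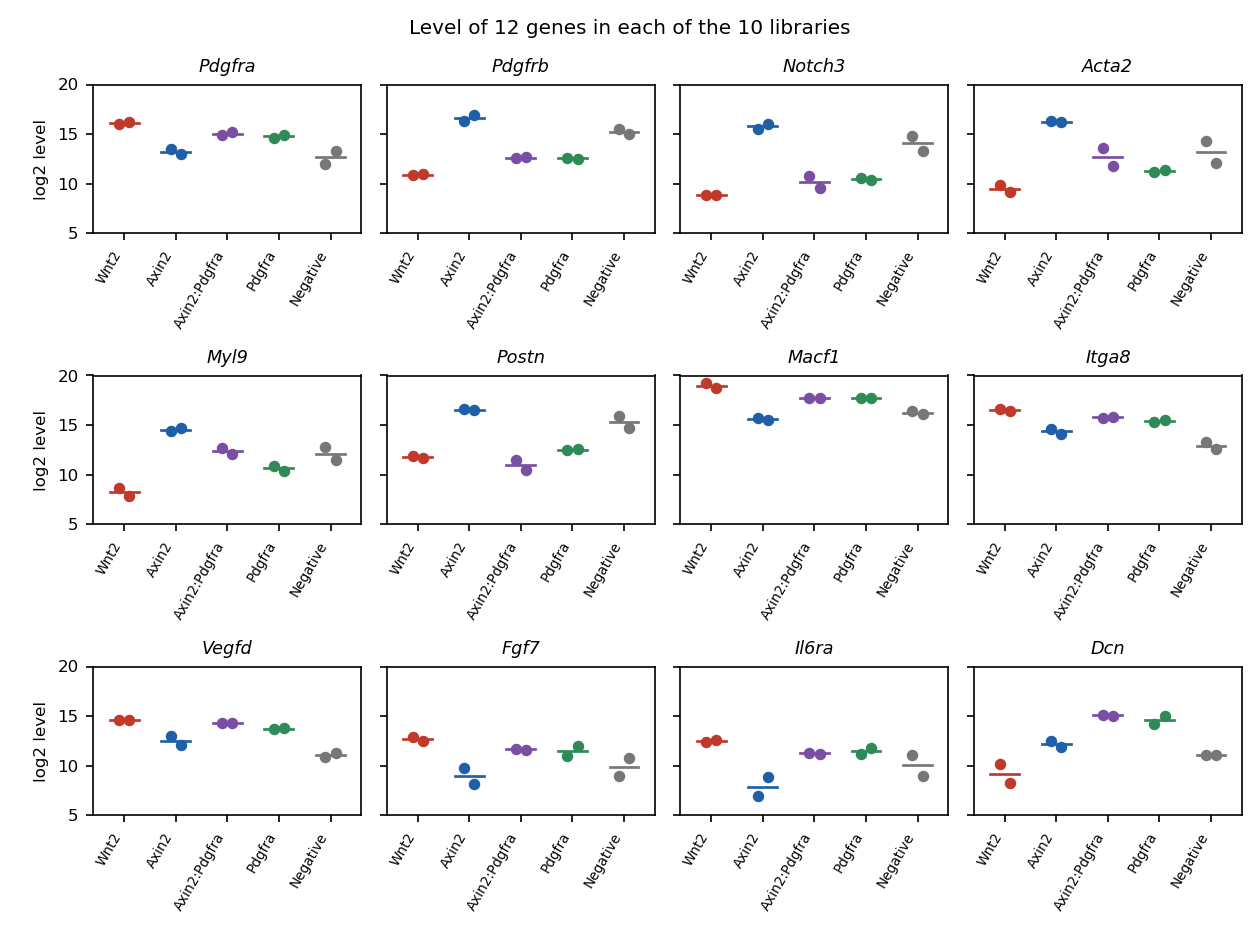
Log2 level (vertical axis, from 5 to 20) of 12 genes in each of the 10 libraries, with a point per library and a line at the mean of each group of 2 (horizontal axis). Pdgfrb, Notch3, Acta2, Myl9 and Postn are high in both Axin2 libraries and low in both Wnt2 libraries, while Pdgfra, Macf1, Itga8, Vegfd, Fgf7 and Il6ra run the other way.

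Smooth muscle contractile genes were lower in Wnt2 cells in the same way. Of 17 listed and tested genes, 15 passed and were lower, with a median difference of -5.27. Within the Axin2 line, Axin2:Pdgfra minus Axin2 gave 6 lower and 1 higher of the 17, with a median of -2.93. Over all 14177 genes 195 were lower and 131 higher there. Acta2, smooth muscle actin, was at 9.87 and 9.14 in Wnt2 cells and at 16.28 and 16.25 in Axin2 cells (-6.75 ± 0.66, adjusted p = 6.32e-05). Myh11, the smooth muscle myosin heavy chain, was at 9.69 and 9.30 against 14.81 and 14.72 (-5.27 ± 0.77, adjusted p = 0.00135). The Axin2 libraries lay close together for both genes and far above both Wnt2 libraries. Myl9, a regulatory light chain of myosin, was at 8.70 and 7.88 against 14.40 and 14.70 (-6.26 ± 0.54, adjusted p = 2.10e-05). Actc1, an actin of heart and developing muscle, was at 7.44 and 4.83 against 14.68 and 14.62 (-8.52 ± 1.11, adjusted p = 0.000743). Actg2, the enteric smooth muscle actin, was at 6.89 and 2.45 against 14.47 and 14.33 (-9.73 ± 1.13, adjusted p = 0.000315). These are low or near-absent levels in Wnt2 cells, and with values under 6 raised to 6 the Actg2 difference was -7.95.

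Myocd, which encodes myocardin, the coactivator that drives smooth muscle genes through serum response factor, was at 2.06 and 4.65 against 10.71 and 10.77 (-7.38 ± 1.49, adjusted p = 0.0123). The listed genes that did not pass were Mylk, the myosin light chain kinase, at 15.92 and 15.50 against 15.14 and 15.19, and Hhip, a Hedgehog antagonist of airway and myofibroblast cells, at 10.90 and 9.04 against 10.28 and 8.64. Mylk, the kinase that phosphorylates Myl9, differed by 0.54 ± 0.21 (adjusted p = 0.192), with a 95% interval of 0.09 to 1.0 before adjustment, so it was not lower in Wnt2 cells as its substrate was. The count of 15 became 10 and 11 without Wnt2 library 1 or 2, and 9 and 8 without Axin2 library 1 or 2. The calls of Acta2, Myh11, Myl9, Actc1 and Actg2 held in every one of these fits, and that of Myocd ended in 3.

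Because myocardin acts through serum response factor, the stretch before the start of each gene was searched for the CArG box, the motif that factor binds. The windows were the 250 bases before each start in RefSeq (GRCm38.p6), read on both strands. Of the 13 smooth muscle list genes with a window, 2 held a CArG box, 15.4% of their windows, beside 1.47% of all 32851 windows. Among genes lower in Wnt2 cells 3.31% of windows held one, and among genes higher in Wnt2 cells 2.36%. The matches of the smooth muscle list, with one of the pericyte calcium channel gene Trpc6 and one of the axon guidance receptor gene Robo1, a higher gene, are printed 5′ to 3′ on the gene's strand, with the CArG box in capitals. Actc1 is from chr2:114052893-114052942 (minus strand), Myl9 from chr2:156775283-156775332 (plus), Trpc6 from chr9:8544000-8544049 (plus) and Robo1 from chr16:72663069-72663118 (plus).
Actc1: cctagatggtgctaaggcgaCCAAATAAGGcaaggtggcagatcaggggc
Myl9: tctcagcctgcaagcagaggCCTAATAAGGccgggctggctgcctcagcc
Trpc6: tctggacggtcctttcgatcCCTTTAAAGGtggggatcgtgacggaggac
Robo1: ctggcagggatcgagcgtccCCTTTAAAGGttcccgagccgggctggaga
The boxes ended 37, 151, 112 and 50 bases before the annotated start. Trpc6 and Robo1 hold the same box letters and lay on opposite sides: Trpc6 was at 8.13 and 5.76 against 13.12 and 13.20 (-6.21 ± 1.58, adjusted p = 0.0414), and Robo1 was at 12.82 and 12.72 against 9.64 and 10.14 (2.88 ± 0.53, adjusted p = 0.00695). These 2 genes were chosen after their values were seen. Each of these calls ended without any one of the 4 libraries compared. A match is a description of the letters only.

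Of 14 Notch pathway genes, Axin2:Pdgfra minus Axin2 gave 3 lower and none higher, with a median of -1.68, beside 195 of all 14177 genes lower. In Wnt2 minus Axin2, 3 passed, all lower in Wnt2 cells, and the median of the list was -0.99. These were the receptor Notch3, described above, its target Heyl, a transcriptional repressor, and Nrarp, a feedback inhibitor induced by Notch. Notch3 and Heyl are also on the pericyte list and were counted there. Heyl was at 12.83 and 11.76 against 14.51 and 15.02 (-2.47 ± 0.46, adjusted p = 0.00704). Nrarp was at 5.64 and 3.70 against 12.52 and 12.96 (-8.07 ± 1.01, adjusted p = 0.000518). The receptors Notch1, at 11.59 and 12.19 against 13.28 and 12.86, and Notch2, at 13.04 and 13.30 against 13.98 and 14.44, did not pass, nor did the ligands Jag1, Jag2, Dll1 and Dll4. The Notch3 and Nrarp calls held in every fit without a library, and that of Heyl ended without Wnt2 library 2 and without Axin2 library 2. Of 20 listed mesenchymal transcription factors 1 passed, beside 4.05% of all genes. This was Ebf1, which is active in mural cells, at 6.59 and 7.37 against 12.76 and 13.14 (-5.97 ± 0.89, adjusted p = 0.00159). Tcf21, Foxf1, Tbx2 to Tbx5 and Gata6 did not pass.

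Part of the list of alveolar fibroblast and lipofibroblast genes was higher in Wnt2 cells. Of 23 listed and tested genes, 11 passed and all of those were higher, beside 1.8% of all genes higher. The median of the list was 1.47. Within the Axin2 line, Axin2:Pdgfra minus Axin2 gave 6 of the 23 higher and none lower, with a median of 1.16. Over all genes 131 of 14177 were higher there. Macf1, a large linker of actin and microtubules, was at 19.25 and 18.72 in Wnt2 cells and at 15.74 and 15.49 in Axin2 cells (3.37 ± 0.18, adjusted p = 1.49e-07). The value of 19.25 is the highest in its file. Itga8, the integrin subunit that marks alveolar fibroblasts, was at 16.58 and 16.45 against 14.57 and 14.16 (2.15 ± 0.26, adjusted p = 0.000407). Its ligand nephronectin, Npnt, was at 16.68 and 16.14 against 15.60 and 15.47 (0.88 ± 0.21, adjusted p = 0.0294), among the smallest differences to pass. Integrin subunit and ligand were thus both higher in this fit. The Npnt difference ranged from 0.61 to 1.15 with a library left out, and its call did not hold with the gene length trend removed (0.46).

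Limch1, an activator of nonmuscle myosin, was at 16.32 and 16.17 against 14.80 and 14.09 (1.80 ± 0.26, adjusted p = 0.00114). Col13a1, a transmembrane collagen that defines this fibroblast class, was at 12.70 and 12.36 against 9.66 and 7.43 (3.99 ± 0.88, adjusted p = 0.0204). Here the Axin2 libraries lay further apart than for the other members. Slc27a6, a fatty acid transporter, was at 10.21 and 8.60 against 4.91 and 3.70 (5.11 ± 1.3, adjusted p = 0.0414). Its call ended with values under 6 raised to 6 (3.41, adjusted p = 0.0782) and in 7 of the 10 fits that left out a library. The sodium channel gene Scn7a, the cysteine dioxygenase gene Cdo1, the matrix genes Spon1 and Mfap4 and the growth factor gene Vegfd completed the set, with differences of 1.6, 1.37, 1.75, 1.33 and 2.09. Plin2, the lipid droplet coat protein, at 11.86 in both Wnt2 libraries against 11.09 and 13.22, and Tcf21, at 13.12 and 13.04 against 11.50 and 12.98, did not pass. Nor did Pparg, Lpl, Inmt, Ces1d and Fgfr4. The count of 11 became 4 without Wnt2 library 1, 5 without Wnt2 library 2, 8 without Axin2 library 1 and 3 without Axin2 library 2. The calls of Macf1, Itga8 and Limch1 held in each fit. Those of Npnt (0.46, adjusted p = 0.29), Spon1 (1.32, adjusted p = 0.051) and Slc27a6 (4.69, adjusted p = 0.0593) ended when the trend on gene length was removed, and 9 of the list then passed.

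**Figure D3:**
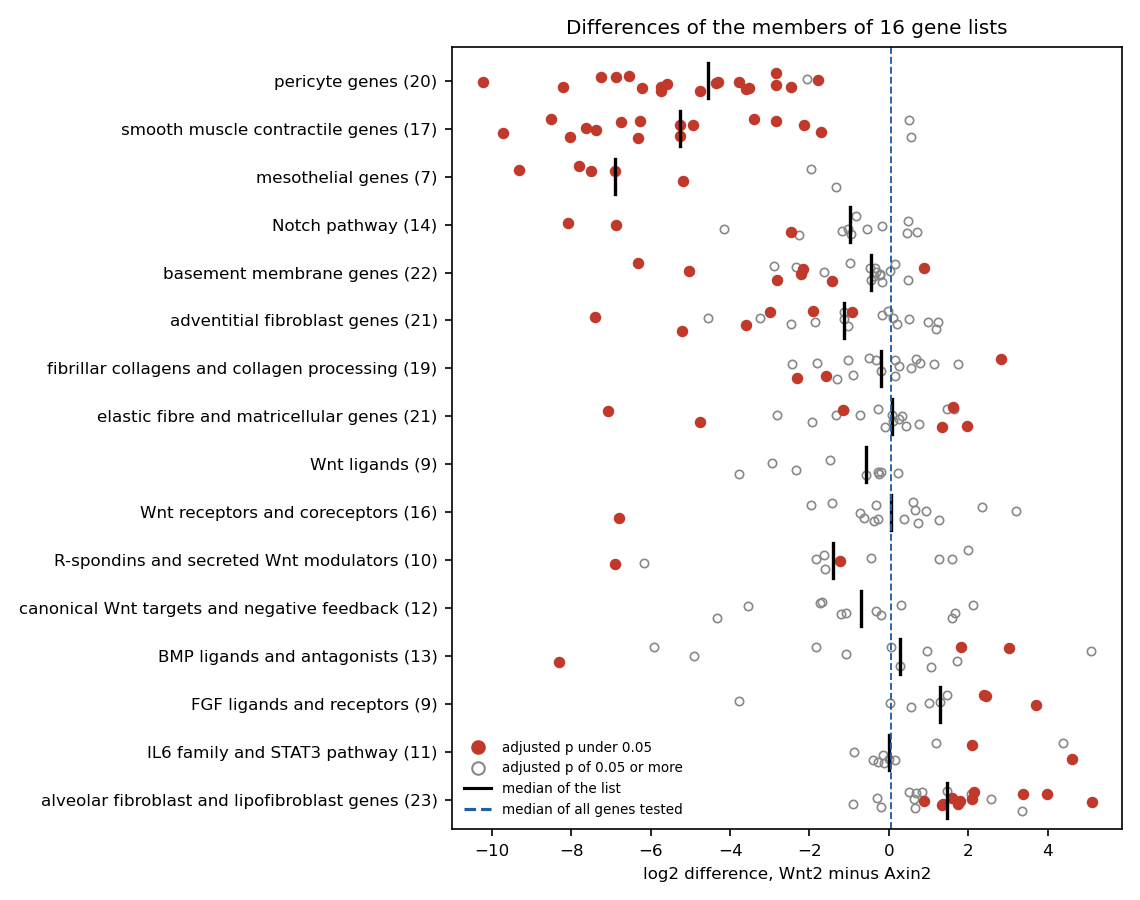
Log2 difference (Wnt2 minus Axin2, horizontal axis) of each tested member of 16 gene lists, with the number of members in brackets; filled points passed the threshold, open points did not, black bars are list medians and the dashed line is the median of all genes (0.06). Pericyte (19 of 20) and smooth muscle (15 of 17) members lie to the left, and alveolar fibroblast members (11 of 23 past the threshold) to the right.

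The signals made by mesenchyme for its neighbours were read by family. FGF ligands act on epithelial receptors during growth and repair. Fgf7, keratinocyte growth factor, was at 12.88 and 12.54 in Wnt2 cells and at 9.79 and 8.22 in Axin2 cells (3.71 ± 0.70, adjusted p = 0.00805). Fgf10, the ligand that drives distal lung growth, was at 11.98 and 11.46 against 9.64 and 8.90 (2.45 ± 0.62, adjusted p = 0.0413). The receptor Fgfr3 was at 12.02 and 12.78 against 9.79 and 10.21 (2.40 ± 0.57, adjusted p = 0.0299). Of the 9 FGF genes tested these 3 passed, all higher. Fgf1, Fgf2, Fgf18, Fgfr1, Fgfr2 and Fgfr4 did not pass. None of the 3 calls held without Wnt2 library 1, Wnt2 library 2 or Axin2 library 2, and 1 held without Axin2 library 1. That of Fgf10 also ended with the gene length trend removed (2.05, adjusted p = 0.079).

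Of 13 BMP genes, 2 were higher and 1 was lower. Bmp3, a ligand that opposes other BMPs, was at 14.41 and 13.56 against 12.30 and 12.04 (1.81 ± 0.41, adjusted p = 0.0212). Bmper, an extracellular regulator that binds BMPs, was at 13.84 and 13.38 against 10.75 and 10.44 (3.02 ± 0.53, adjusted p = 0.00482). Fst, which encodes the activin antagonist follistatin, was near the lowest value in Wnt2 cells, at 1.88 and 1.55, against 9.70 and 10.36 (-8.32 ± 1.77, adjusted p = 0.0162, or -4.03 with values under 6 raised to 6). Bmp4, at 13.34 and 12.87 against 10.99 and 11.79, and Bmp5, at 12.86 and 12.63 against 12.06 and 12.86, did not pass. In the TGF-beta family 1 of 15 passed, beside 4.05% of all genes. This was Ltbp2, a latent TGF-beta binding protein relative of elastic fibres, at 10.63 and 9.89 against 15.47 and 16.39 (-5.67 ± 0.45, adjusted p = 1.41e-05). The ligands Tgfb1 to Tgfb3 and the receptors did not pass. Only the Ltbp2 call held without each library in turn. Those of Bmp3 and Fst ended without any of the 4 libraries compared, and that of Bmper without Wnt2 library 1 and without Axin2 library 2.

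The endothelial growth factor Vegfd was at 14.63 and 14.60 against 12.98 and 12.06 (2.09 ± 0.35, adjusted p = 0.00329). Vegfa, at 13.79 and 13.87 against 13.20 and 12.30, did not pass. Igf2, a growth factor of fetal tissue, ran the other way, at 5.0 and 5.92 against 10.39 and 11.59 (-5.53 ± 0.88, adjusted p = 0.00254). Of 11 genes of the IL6 family and STAT3 pathway, 2 passed, both receptors and both higher. Il6ra, the IL6 receptor, was at 12.39 and 12.64 against 6.91 and 8.87 (4.62 ± 0.78, adjusted p = 0.00357). Osmr, the oncostatin M receptor, was at 13.55 and 13.90 against 11.62 and 11.64 (2.09 ± 0.35, adjusted p = 0.00329). Their shared partner Il6st, at 14.28 and 14.01 against 14.53 and 14.56, did not pass, nor did Stat3 and its target Socs3. Each receptor call ended without Wnt2 library 2 and held in the other 9 fits, and those of Vegfd and Igf2 ended only without Axin2 library 2.

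Wnt pathway genes were read in 4 lists, beside the 4.05% of all genes that passed. None of 9 Wnt ligands and none of 12 canonical target or feedback genes passed, with medians of -0.58 and -0.70. At an adjusted p over 0.05 by limma, Lef1 was at 7.22 and 7.18 against 10.81 and 12.26, Znrf3 at 13.68 and 12.73 against 10.59 and 11.59, and Wnt4 at 7.18 and 8.24 against 9.64 and 10.47. Their adjusted p by limma was 0.154, 0.078 and 0.245. No difference is read from these levels, since none of these genes passed. With 2 libraries against 2, an exact permutation p cannot go under 0.333. Among 16 receptors, Lgr6, a receptor for R-spondins, was lower in Wnt2 cells, at 1.95 and 3.35 against 9.11 and 9.80 (-6.81 ± 1.73, adjusted p = 0.041). Frizzled receptors and Lrp5 and Lrp6 did not pass. Among 10 secreted modulators, Rspo1, an R-spondin that amplifies Wnt signals, was at 1.95 and 3.85 against 9.14 and 10.44 (-6.89 ± 1.73, adjusted p = 0.0383). Dkk3, a relative of the Dickkopf antagonists, was at 13.08 and 12.93 against 14.16 and 14.30 (-1.22 ± 0.31, adjusted p = 0.0394). All 3 calls ended without any one of the 4 libraries compared, and those of Lgr6 and Rspo1 also with values under 6 raised to 6 (-3.46 and -3.79, adjusted p = 0.0923 and 0.0571). Rspo1 is also on the mesothelial list given below, whose members moved with it; their part in its difference was not tested.

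Matrix genes were read in 3 lists, with members higher and lower in each. Of 19 fibrillar collagen and processing genes, 1 was higher and 2 were lower, and the main collagens did not pass: Col1a1 was at 13.76 and 13.30 against 13.44 and 14.02, and Col3a1 at 15.35 and 14.16 against 14.52 and 14.50. Lysyl oxidases cross-link collagen and elastin, and they moved in opposite directions. Lox was at 14.76 and 14.97 in Wnt2 cells and at 12.65 and 11.42 in Axin2 cells (2.83 ± 0.43, adjusted p = 0.0018). Loxl2 was at 11.02 and 10.81 against 13.19 and 13.27 (-2.31 ± 0.38, adjusted p = 0.00345). The collagen chaperone gene Serpinh1 was lower (-1.59 ± 0.42, adjusted p = 0.0469). The Lox call held in every fit without a library. That of Loxl2 ended without Wnt2 library 2 and without Axin2 library 2, and that of Serpinh1 in 6 of the 10 fits, with values under 6 raised to 6 (adjusted p = 0.055) and with the gene length trend removed (adjusted p = 0.0963).

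Basement membrane genes were 6 lower and 1 higher among 22 tested, with a median of -0.46. The main collagen IV chains were both lower in Wnt2 cells: Col4a1 was at 14.19 and 13.78 against 15.30 and 15.53 (-1.43 ± 0.25, adjusted p = 0.00426) and Col4a2 at 13.40 and 13.26 against 15.45 and 15.64 (-2.21 ± 0.25, adjusted p = 0.000293). Perlecan, Hspg2, was at 13.42 and 13.24 against 15.27 and 15.74 (-2.17 ± 0.31, adjusted p = 0.00119). Laminin chains Lamb2 and Lamc3 were lower by log2 differences of -2.81 and -6.33, while Lama2, Lama4, Lamb1, Lamc1 and the linker Nid1 did not pass. The Lamc3 difference was -4.30 with values under 6 raised to 6, and it ran from -9.0 to -3.6 with a library left out. Npnt was the higher gene. The count of 6 became 5, 2, 4 and 3 without Wnt2 library 1, Wnt2 library 2, Axin2 library 1 and Axin2 library 2, and the calls of Col4a2 and Hspg2 held throughout.

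Of 21 elastic fibre and matricellular genes, 3 were higher and 3 were lower. Fibronectin, Fn1, was at 17.47 and 17.04 against 15.61 and 15.68 (1.61 ± 0.23, adjusted p = 0.0013). Efemp1, a fibulin, was at 14.12 and 14.52 against 12.38 and 12.31 (1.97 ± 0.33, adjusted p = 0.00361), and Mfap4, named above, was the third. Sparc, a collagen-binding protein, was at 15.80 and 15.40 against 16.94 and 16.58 (-1.16 ± 0.21, adjusted p = 0.00622). Postn was lower, as given above, and both Wnt2 libraries had Thbs2 at their lowest value, against 9.29 and 6.88, so no fold is given. Eln, the elastin gene, at 14.70 and 12.49 against 11.73 and 12.52, did not pass. The Fn1 and Postn calls held in every fit without a library, and those of Efemp1 and Sparc ended in 2 fits each, among them the one without Wnt2 library 2. Those of Mfap4 and Thbs2 ended without any one of the 4 libraries, and that of Thbs2 with values under 6 raised to 6 (adjusted p = 0.305).

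Adventitial fibroblast genes were 6 lower and none higher among 21 listed and tested, with a median of -1.12. Col14a1, a fibril-associated collagen, was at 9.54 and 8.15 in Wnt2 cells and at 12.99 and 11.92 in Axin2 cells (-3.61 ± 0.56, adjusted p = 0.00231). Dcn, decorin, was at 10.17 and 8.24 against 12.55 and 11.88 (-3.01 ± 0.54, adjusted p = 0.00567). Pi16, a surface marker of this class, was at 5.55 and 2.06 against 9.49 and 8.55 (-5.22 ± 1.3, adjusted p = 0.0377). The Axin2 libraries were not the high point of this list: Col14a1 was at 12.67 to 14.34, and Dcn at 14.21 to 15.14, in the 4 Axin2:Pdgfra and Pdgfra libraries. Igfbp4, complement C3 and Entpd2 also passed, with Entpd2 at the lowest value in both Wnt2 libraries. Dpt, Gsn, Cd34 and Clec3b, of the same list, did not pass, and Dpt was at 14.03 and 13.88 against 13.92 and 14.05. The count of 6 became 4, 2, 1 and 2 without Wnt2 library 1, Wnt2 library 2, Axin2 library 1 and Axin2 library 2. Only the Col14a1 call held in each, and that of Pi16 ended with values under 6 raised to 6 (-3.02, adjusted p = 0.142), as did that of Entpd2 (adjusted p = 0.304).

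**Figure D4:**
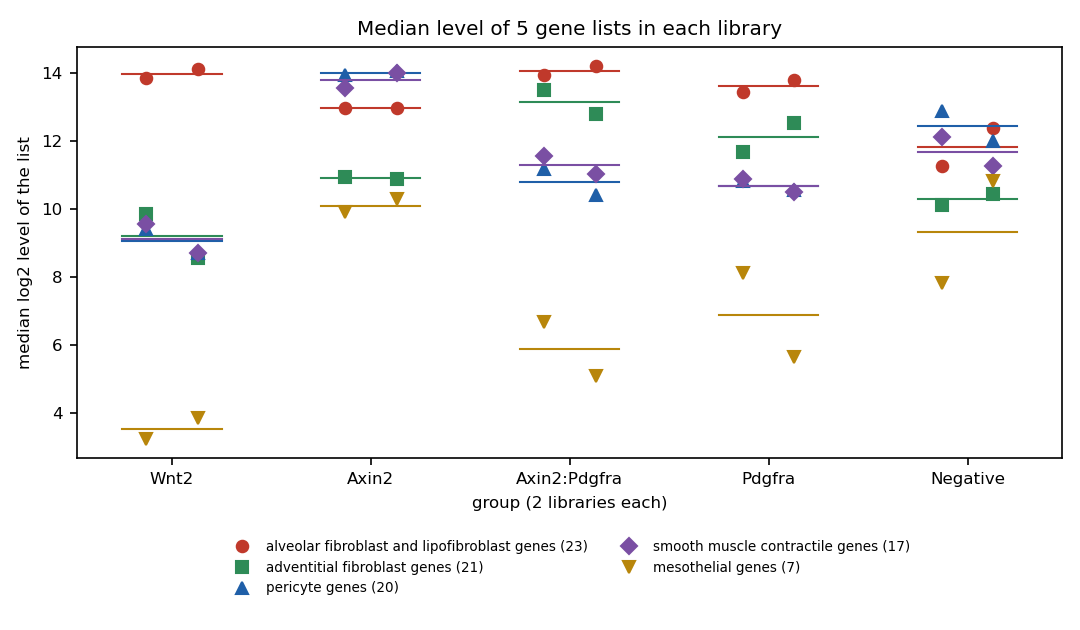
Median log2 level (vertical axis) of 5 gene lists in each of the 10 libraries, by group (horizontal axis), with a symbol per library and a line at the mean of each pair. The Wnt2 libraries have the lowest pericyte (9.42 and 8.71) and smooth muscle (9.54 and 8.72) medians of the 5 groups, and the Axin2 libraries the highest (13.9 and 14.1, 13.6 and 14).

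Wnt2 cells were also compared with the Axin2:Pdgfra and Pdgfra groups of the Axin2 line, and fewer genes passed. These comparisons share the Wnt2 libraries with the main one. Against Axin2:Pdgfra cells, 90 genes passed (0.635%), 16 higher (0.113%) and 74 lower (0.522%). Against Pdgfra cells, 52 passed (0.367%), 4 higher (0.0282%) and 48 lower (0.339%). These counts lean on single libraries: without Wnt2 library 2 they were 24 and 9, without Wnt2 library 1 they were 38 and 31, without Axin2:Pdgfra library 2 the first was 26, and without Pdgfra library 1 or 2 the second was 2 or 8. Leaving out libraries of groups outside a comparison moved them too: without an Axin2 library they were 47 or 48 and 22 or 23, without a Pdgfra library the first was 37 or 46, without an Axin2:Pdgfra library the second was 30 or 31, and without a Negative library they were 165 or 170 and 80 or 83.

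Of the lists described here, the adventitial list had the largest counts. It had 12 of 21 genes lower in Wnt2 than in Axin2:Pdgfra cells, with a median of -3.56, and 7 of 21 lower than in Pdgfra cells, with a median of -2.27. Pericyte genes gave 3 and 2 of 20 lower, with medians of -0.02 and -1.21. Smooth muscle contractile genes gave 5 and 1 of 17 lower, with medians of -1.91 and -1.82. Over all genes 0.522% and 0.339% were lower. The adventitial count of 12 became 7 or 6 without Wnt2 library 1 or 2 and 6 without Axin2:Pdgfra library 2, and was 8 or more in the other fits. The count of 7 became 1 without Wnt2 library 2 or either Pdgfra library, 4 without Wnt2 library 1 or any library of the Axin2 and Axin2:Pdgfra groups, and 12 without either Negative library. Lum, lumican, shows the pattern: it was at 6.38 and 7.35 in Wnt2 and at 4.91 and 6.35 in Axin2 cells, but at 13.84 and 12.65 in Axin2:Pdgfra cells, a difference of -6.38 ± 1.19 from the last (adjusted p = 0.0265). Hhip was at 14.79 and 13.76 in Axin2:Pdgfra cells, -4.30 ± 0.73 as the Wnt2 difference (adjusted p = 0.0161). The R-spondin receptor Lgr5 was at 4.07 and 1.0 in Wnt2 cells and at 11.52 and 9.96 in Axin2:Pdgfra cells, but at 3.96 and 1.75 in Axin2 cells (Wnt2 minus Axin2:Pdgfra -8.21 ± 1.78, adjusted p = 0.0533).

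Macf1 was at 17.72 in all 4 Axin2:Pdgfra and Pdgfra libraries. Such equal values arise at the top of the shared distribution, where steps are set by rank, so its differences follow those steps. It was the single gene higher in Wnt2 cells than in each of Axin2, Axin2:Pdgfra and Pdgfra cells, by 3.37, 1.27 and 1.27. That call ended without Wnt2 library 1, Axin2:Pdgfra library 2 or either Pdgfra library, and with the gene length trend removed. It also ended without a variance trend and robust fit, and with only the 2 groups of each comparison fitted. Lower than in all 3 were 22 genes. Of these, 13 and 4 remained without Wnt2 library 1 and 2, 8 and 11 without Axin2 library 1 and 2, 12 without either Axin2:Pdgfra library, 2 and 5 without Pdgfra library 1 and 2, and 14 with values under 6 raised to 6. Without either Negative library the count was 40. Upk1b alone remained in each fit that left out a library. Without a variance trend and robust fit, 2 of the 22 remained, and Upk1b was not among them. With only the 2 groups of each comparison fitted, 6 remained. Besides Pdgfrb, Col14a1, Dcn, Pi16, Igfbp4 and Abcc9, the 22 include Axl, the receptor tyrosine kinase for Gas6. Axl was at 9.24 and 8.81 in Wnt2 cells, at 15.21 and 15.32 in Axin2 cells and at 12.58 to 13.78 in the 4 libraries with the Pdgfra label (-6.24, -4.44 and -3.56 in the 3 comparisons, adjusted p = 8.93e-07, 0.000128 and 0.00126). Enpp2, the enzyme autotaxin that makes lysophosphatidic acid, was at 11.19 and 10.53 against 14.28 and 14.40 in Axin2 cells (-3.48 ± 0.36, adjusted p = 0.000102). Clip3, a microtubule-binding protein, was at 8.5 and 7.62 against 13.02 and 13.59 (-5.25 ± 0.50, adjusted p = 4.82e-05). The stromal surface protein Cd248, endosialin, was at 3.70 and 2.01 against 11.89 and 12.31 (-9.25 ± 0.94, adjusted p = 9.44e-05, or -6.10 with values under 6 raised to 6). Among the 22 is also Rpl29, a ribosomal protein gene, at 6.12 and 5.03 in Wnt2 cells and at 10.31 to 11.74 in the other 8 libraries. It was the only one of 79 cytosolic ribosomal protein genes to pass in Wnt2 minus Axin2. Ribosomal protein genes have near-identical copies in the genome, so the value is uncertain, and the part of such copies in it was not tested. Also among the 22 is the mitochondrial ribosomal RNA mt-Rnr1, at 17.72 in both Wnt2 libraries and at 18.39 or 18.72 in the other 8. At this top of the shared distribution the steps are set by rank. Since every such comparison sets 1 mouse line against the other, line and lineage cannot be told apart for these genes. The Wnt2 minus Axin2 calls of Axl, Enpp2, Clip3, Cd248 and Rpl29 held without each library.

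Beyond the lists, the genes with the lowest adjusted p among those higher in Wnt2 cells were, after Macf1, adhesion and signalling genes of long gene models. Ptprd, a receptor phosphatase of synapses, was at 16.14 and 15.61 against 13.05 and 12.84 (2.93 ± 0.26, adjusted p = 3.49e-05). Fat3, an atypical cadherin, was at 15.10 and 14.73 against 10.18 and 11.26 (4.19 ± 0.39, adjusted p = 4.25e-05). Gria3, a glutamate receptor subunit, was at 14.02 and 14.28 against 8.46 and 9.19 (5.32 ± 0.49, adjusted p = 4.25e-05). No Axin2 library reached a Wnt2 library for any of these. Dock4, a Rac and Rap activator, Cdh11, the cadherin of mesenchyme, and Cacna1d, a calcium channel, followed with differences of 3.29, 2.91 and 3.19. On the lower side, beside genes named above, Pcdh18, a protocadherin, was at 8.61 and 8.68 against 14.64 and 15.22 (-6.28 ± 0.52, adjusted p = 1.82e-05). The calls of these 7 genes held in all 10 fits without a library. Some large differences involve genes at the lowest value: 11 called genes had both Axin2 libraries at the lowest value, among them Ppef2 and Slc7a15, and 13 had both Wnt2 libraries there, among them the transcription factor gene Foxs1 and Dnajc6. For these no fold is given.

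Length of the gene moved with the difference. Over 14054 genes with a length in GENCODE M21, the median difference went from -0.65 in the shortest 10% of genes to 0.34 in the longest 10%, and the share of genes higher in Wnt2 cells from 0.427% to 5.83%. Genes lower in Wnt2 cells made up 1.42% of the shortest genes and 3.48% of the longest. The median span was 65.5 kb for higher genes, 31.6 kb for lower genes and 22.7 kb for all. The same drift appeared against Axin2:Pdgfra cells, from -0.60 to 0.50, but not against Pdgfra cells, from 0.16 to 0.04. Pdgfra minus Negative, used below, had it as well, from -0.72 to 0.25. In groups of genes chosen after their values were seen, 79 cytosolic ribosomal protein genes had a median of -0.51 and 13 mitochondrially encoded messenger RNAs of 0.05, while 27 splicing factor and kinase genes had a median of 1.20. The 15 mitochondrial transfer RNAs had a median of -2.36, with a median level of 2.65 in Wnt2 library 1 and of 7.08 to 7.73 in the other 3 libraries, and none passed. The part of these shifts in the gene-level results was tested only through the length trend: with it removed, pericyte and smooth muscle genes gave 18 of 20 and 14 of 17, and 81 of the 89 called genes named with a difference kept their call.

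**Figure D5:**
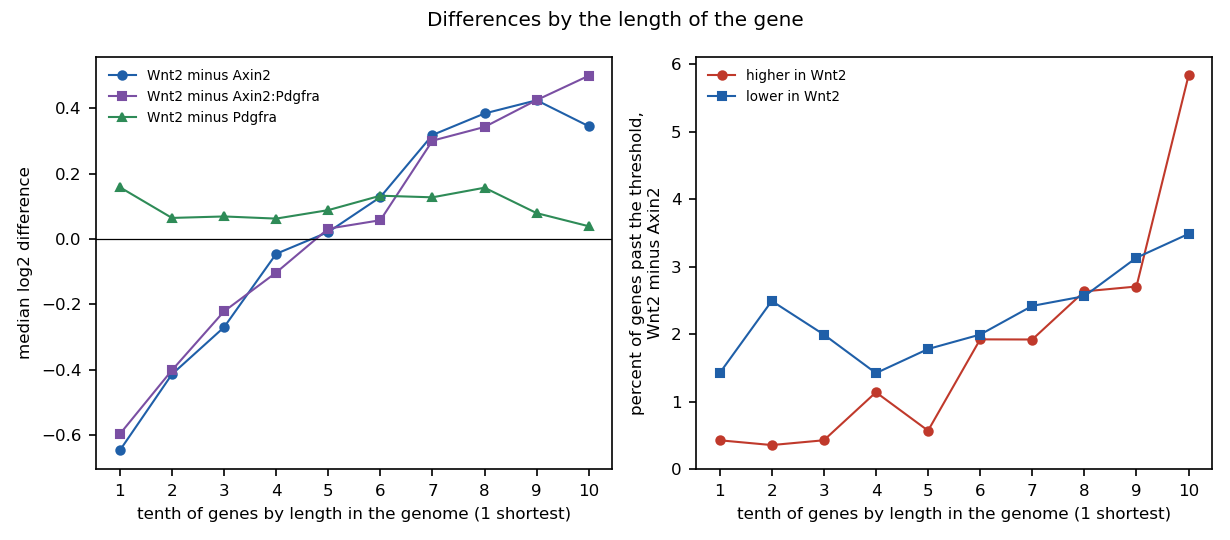
Left, median log2 difference (vertical axis) in 10 equal classes of genes by length (horizontal axis) for Wnt2 minus Axin2, minus Axin2:Pdgfra and minus Pdgfra; right, percent of the genes of each class past the threshold, higher or lower in Wnt2 than in Axin2 cells. The median rises from -0.65 to 0.34 in the main comparison, and the share of higher genes from 0.427% to 5.83%, with the largest step into the last class.

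Markers of other cell types were present in both lineages. Median levels of the epithelial list were 8.61 and 10.2 in the Wnt2 libraries and 10.5 and 9.91 in the Axin2 libraries, and of the endothelial list 10.99 and 11.14 against 11.5 and 10.5. In the epithelial list 1 of 19 passed, beside 4.05% of all genes. This was Scgb1a1, the club cell secretory protein, at 12.04 and 13.30 against 15.06 and 14.53 (-2.12 ± 0.37, adjusted p = 0.00453). In the endothelial list 1 of 15 passed, beside the same 4.05%. This was Eng, endoglin, which mural cells express as well, at 11.41 and 11.25 against 13.94 and 14.42 (-2.85 ± 0.36, adjusted p = 0.000602). Pecam1 was at 11.77 and 12.22 against 12.53 and 11.70, and Sftpc at 12.85 and 13.47 against 14.25 and 13.59. None of 15 immune genes passed, and their median was 9.18 in Wnt2 library 1 and 5.55 in Wnt2 library 2, against 7.98 and 7.10. Their part in the results was not tested. The Scgb1a1 call ended without Wnt2 library 1 and without Axin2 library 1, and that of Eng held in all 10 fits.

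Mesothelial genes, of the sheet that covers the lung, moved with the Axin2 group. Of 9 listed genes 7 were tested, and 5 were lower in Wnt2 cells, with a median of -6.89. The median level of the list was 3.23 and 3.85 in the Wnt2 libraries, 9.91 and 10.3 in the Axin2 libraries and 5.08 to 10.8 in the other 6. Upk3b, a uroplakin, was at 1.88 and 2.64 against 11.15 and 12.02 (-9.33 ± 1.76, adjusted p = 0.00805, or -5.59 with values under 6 raised to 6). Msln, mesothelin, was at 1.55 and 2.01 against 9.28 and 9.90 (-7.81 ± 1.92, adjusted p = 0.0343, or -3.59 and 0.111 with values under 6 raised to 6). Upk1b was at 5.55 and 5.92 against 11.57 and 10.28 (-5.19 ± 0.70, adjusted p = 0.000872), and it was also high in Axin2:Pdgfra cells, at 13.45 and 12.64, where Msln was at 6.68 and 2.06. Without Wnt2 library 1 or 2 and Axin2 library 1 or 2 the count was 1, 2, 1 and 1, and only the Upk1b call held in every fit. Of 5 Schwann cell genes tested, Sox10 and Gfra3 passed and were lower, with Sox10 at 1.0 and 1.74 against 8.48 and 8.79 and Gfra3 at the lowest value in both Wnt2 libraries. Both calls ended without any one of the 4 libraries, and that of Sox10 with values under 6 raised to 6 (-2.63, adjusted p = 0.0956). How far these cells add to the other differences was not tested.

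Genes of the response to tissue handling passed about as often as all genes did (4.05%). Of 20 immediate early and dissociation genes, 1 passed: Zfp36, which degrades cytokine transcripts, was at 14.97 and 15.04 against 13.76 and 14.22 (1.02 ± 0.24, adjusted p = 0.0299). Fos, at 14.57 and 15.16 against 14.58 and 14.21, and Egr1, at 16.01 and 16.22 against 15.66 and 15.77, did not pass. None of 14 heat shock and 9 cell cycle genes passed, and of 14 interferon genes Ifitm3 alone did, at 14.21 and 14.01 against 15.26 and 15.38 (-1.21 ± 0.24, adjusted p = 0.0112). With limma, none of 11 Hedgehog genes passed either, among them Ptch1, at 12.81 and 12.87 against 13.82 and 14.57. The Zfp36 and Ifitm3 calls ended without any one of the 4 libraries, and that of Ifitm3 with the gene length trend removed (-0.58, adjusted p = 0.403).

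The contrast of Pdgfra with Negative cells shares no library with the comparison of Wnt2 and Axin2 cells and gives a separate reading of the Pdgfra label, though both draw on the spread estimated over all 10 libraries and both drift with gene length. The part of that drift in the overlaps was not tested. In it 412 genes passed (2.91%), 288 higher in Pdgfra cells (2.03%) and 124 lower (0.875%). Of the 255 genes higher in Wnt2 than in Axin2 cells, 88 were also higher there, 34.5% of the 255 and 30.6% of the 288, and none was lower. Of the 319 genes lower in Wnt2 cells, 46 were lower there, 14.4% of the 319 and 37.1% of the 124, and 9 were higher. Itga8 (2.48), Ptprd (2.70), Vegfd (2.67) and Pdgfrb (-2.70) were among those with the same direction. The 9 in opposite directions were Cxcl1, Dcn, Enpp2, Col14a1, Fndc1, Thbs2, C4b, C3 and Col15a1, which were higher in Pdgfra than in Negative cells and lower in Wnt2 than in Axin2 cells. They include 3 of the 6 adventitial genes that were lower in Wnt2 cells. Without Pdgfra library 1 or 2 the count of 412 became 86 or 82, without Wnt2 library 1 or 2 it was 262 or 267, and without Negative library 0 it was 633.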

How the data were processed

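The authors deposited, for each library, a table of Ensembl genes with a single value. That it is a log2 scale was read from the values, and the shared distribution is as quantile normalization leaves it. STAR, limma and mm9 are named per the submitters' processing notes, while the sources used here give no version, annotation or counter. From these deposited log2 values, a linear model with a mean for each of 5 groups was fitted over all 10 libraries with limma 3.58.1 in R 4.3.3 (eBayes with trend and robust, 5 residual degrees of freedom, two-sided) and p-values were adjusted by Benjamini-Hochberg over 14177 genes, with a threshold of 0.05. Levels are per library and errors are standard errors of the log2 difference. An exact permutation test of 2 against 2 libraries cannot go under 0.333 and was not used. Symbols were matched to 14720 of 14854 identifiers. The members and the 33 gene lists were chosen with earlier results of these data known. Genes named are the lineage genes, members of the lists in list order or past the threshold, those with the lowest adjusted p or largest difference at a level of 9 or more, and those higher or lower than in each of 3 groups. Exceptions are said where they occur. Alternatives covered the filter, low values, scaling, the variance model, fewer groups, the second index of the barcode, a replicate block and each library left out. Removing a trend on gene length and dropping genes at the lowest value were added after seeing the data.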

Additional observations from a re-analysis of the deposited data

How the results depend on the processing

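The call count of 574 was 189 (58 higher, 131 lower) without a variance trend and robust fit and 985 (454 and 531) with only the 2 groups compared. Leaving out a library gave 120 to 814 (49 to 390 higher, 62 to 424 lower). Wnt2 minus Axin2:Pdgfra went from 90 to 42 and 18 under the same changes of fit, and to 24 to 170 with a library left out. Wnt2 minus Pdgfra went from 52 to 4 and 19, and to 2 to 83. Pdgfra minus Negative went from 412 to 71 without the trend, and to 82 to 633. The cause was not tested. Of the 89 called genes named with a difference, 55 lost the call without the variance trend, 13 with the second index as a term, 11 with values under 6 raised to 6 and 0 to 44 with a library left out, and none changed sign in any fit. Among the uncalled genes, Wnt2 ranged from -0.54 without Axin2 library 1 to 0.15 without Axin2 library 2, and Axin2 from -0.24 to 0.86 under the same omissions, so both changed sign. Same-numbered libraries did not deviate together (correlations of -0.061 to 0.028), so the numbers were not taken as pairs. With the replicate block 691 genes passed, and 2 of the 89 calls ended. The tables hold no counts, so no limit from depth can be given.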
